A study of Homo sapiens with 12 samples.

Results

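The TGF-β receptor complex was examined at the transcript level in HEYA8 cells, an ovarian cancer line, that had been made to express mutants of the co-receptor betaglycan (BG). The complex was taken as 5 genes, selected by symbol from the 56269 genes of the count table: the type II receptor TGFBR2, the type I receptors TGFBR1 and ACVRL1, and the co-receptors TGFBR3, which encodes betaglycan, and ENG, which encodes endoglin. RNA-seq was done on 12 libraries in 4 groups of 3. Cells of the control vector group carried the lentiviral vector without betaglycan. ∆GAG-BG cells expressed human, HA-tagged betaglycan with serines 534 and 545 both changed to alanine. S534A (CS-BG) and S545A (HS-BG) cells expressed betaglycan with 1 of these serines changed. All 4 groups were stable lines sorted on the dTomato marker of the vector. They were grown at steady state in regular growth medium with serum, and no deletion of endogenous betaglycan is named for any of them. Cells with unmutated betaglycan were not analysed here, so the comparisons are between mutants and between each mutant and control vector. The title of the third S545A library spells the mutation with another last letter, and its genotype label is S545A.

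TGF-β binds TGFBR2, a constitutively active kinase, which then recruits and phosphorylates TGFBR1, the kinase that activates SMAD2 and SMAD3. ACVRL1 (also called ALK1) is a second type I receptor, best known in endothelium, that activates SMAD1 and SMAD5. Betaglycan and endoglin are related co-receptors with short cytoplasmic tails and no kinase. Betaglycan presents ligand to TGFBR2 and can be shed from the membrane as a soluble protein, and its extracellular domain carries heparan sulfate and chondroitin sulfate chains on the serines that were mutated here.

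These serines are what the labels (S534A and S545A) and the paper (∆GAG-BG) give as differing between the expressed constructs, so the reference coding sequence around them is shown. It is codons 529 to 550 of transcript ENST00000212355.8 (GENCODE 29, an 851-residue form), on exon 11 of 17, written on the minus strand of chromosome 1 (GRCh38), chr1:91716625-91716690. The codons of serines 534 and 545 are in capitals, and each is followed by a glycine codon.
TGFBR3 codons 529 to 550: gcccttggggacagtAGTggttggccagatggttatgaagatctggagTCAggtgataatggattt
The first capital codon, at chr1:91716673-91716675, is the one changed in S534A, and the second, at chr1:91716640-91716642, is the one changed in S545A. Both are changed in ∆GAG-BG. The counts are sums over a gene and do not show the mutated bases, so endogenous and vector-derived TGFBR3 transcripts cannot be told apart.

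The other genes lie at chr3:30606502-30694142 (TGFBR2, plus strand), chr9:99104038-99154192 (TGFBR1, plus strand), chr12:51906908-51923361 (ACVRL1, plus strand) and chr9:127815012-127854756 (ENG, minus strand), and TGFBR3 spans chr1:91680343-91906335. All 5 have the same start and end in the count table and in GENCODE 29. The longest identical run between annotated transcripts of any 2 of them was 16 bases, between TGFBR3 and ENG. ENG shares 313 exonic bases with RP11-228B15.4 on the opposite strand, which held 93 to 338 counts a library against 10583 to 23001 for ENG.

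Libraries held about 16410000 to 29504300 counts in genes, and 3 counts, taken as the upper limit behind a count of 0, came to 0.1 to 0.182 CPM, the usual scaling of counts to a common library total, here with TMM-scaled library sizes. Libraries 2 and 3 of S545A, of ∆GAG-BG and of control vector were unusually alike: the chi-square of their counts over genes, divided by its degrees of freedom, was 1.37 to 1.89, where 1 is sampling noise alone, against 15.6 to 69.1 for the 9 other pairs within a group. All libraries are counted in n, but whether libraries 2 and 3 came from separate cultures was not tested, so n = 3, the SDs and the exact p-values may rest on 2 independent samples in each of these 3 groups. Library 1 of each group and libraries 2 and 3 of S534A were each closest to a library of another group. Markers of cell type were read, which do not identify a line. KRT7, KRT8, KRT18, VIM and PAX8 were abundant in every library, and MUC16 and CDH1 held 0 counts in all 12. Of the other epithelial markers, KRT19 was at most 0.788 CPM and EPCAM at most 1.76 CPM. Of the other ovarian carcinoma markers, WT1 stood at 3.41 to 8.37 CPM, MSLN at 6.89 to 18.0 CPM and ESR1 at most 0.518 CPM. The mesenchymal CDH2 stood at 115 to 150 CPM and FN1 at 321 to 1411 CPM. Of 8 endothelial markers CDH5 (168 to 431 CPM) and TIE1 (266 to 361 CPM) were abundant. KDR and VWF stood at 1.99 to 14.9 CPM, and PECAM1, TEK, CLDN5 and EMCN were at most 0.767 CPM. Leukocyte and fibroblast markers were at most 0.188 CPM except PDGFRB, at 0.700 to 5.04 CPM. In bulk RNA, fewer cells with a transcript and less of it per cell cannot be told apart.

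TGFBR3, the gene that the constructs deliver, went against the labels of 2 groups. In the libraries labelled ∆GAG-BG it stood at 259, 20.3 and 21.4 CPM. In those labelled control vector it stood at 15.9, 259 and 259 CPM. Library 1 of ∆GAG-BG thus had the level of control vector libraries 2 and 3, with counting intervals (95%, exact Poisson, counting error only) of 253 to 266, 252 to 266 and 253 to 265 CPM. Library 1 of control vector, with an interval of 14.5 to 17.4 CPM, was below ∆GAG-BG library 2 (18.4 to 22.3 CPM) and library 3 (19.5 to 23.4 CPM). Across all genes, ∆GAG-BG library 1 was closest to control vector library 2 (chi-square per degree of freedom 31.5, against 56.7 and 57.2 for its own group), and control vector library 1 was closest to S534A library 1 (6.62, against 26.1 and 27.9 for its own group). Control vector library 1 was also closer to ∆GAG-BG libraries 2 and 3, at 14.2 and 14.4, than to its own group, but closer still to S545A library 1, at 8.32. For ∆GAG-BG library 1, control vector library 3 (34.6), S545A library 2 (34.8) and S534A library 3 (41.6) were also nearer than its own group. S534A library 1 was likewise nearer to ∆GAG-BG libraries 2 and 3 (11.9 and 12.6) than to its own group (60.6 and 15.6). Such closeness was thus not particular to ∆GAG-BG and control vector. Control vector, which carried no betaglycan construct, was below ∆GAG-BG in library 1 (15.9 against 259 CPM). In libraries 2 and 3 it was above (259 and 259 against 20.3 and 21.4 CPM). The paper describes HEYA8 as low in endogenous betaglycan. Whether the 2 libraries numbered 1, or libraries 2 and 3 of both groups, were exchanged was not tested. The libraries are named by their labels throughout, and every difference that involves ∆GAG-BG or control vector rests on them. For TGFBR3 the single mutants lay above the libraries of both groups, whichever of these 2 labels a library carried.

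Per length of exon, the 5 receptors differed over a wide range, with means in the order ENG, TGFBR2, TGFBR3, TGFBR1 and ACVRL1. ENG stood at 147 to 195 RPKM (CPM per kilobase of exon) and TGFBR2 at 103 to 147 RPKM, and within each library ENG was the higher in 12 of 12, by 1.03 to 1.65 times. TGFBR1 stood at 5.88 to 7.40 RPKM and ACVRL1 at 0.215 to 0.592 RPKM. TGFBR2 exceeded TGFBR1 in RPKM by 14.5 times in S534A library 3 and by 24.96 times in ∆GAG-BG library 1, the extremes. TGFBR3 ranged from 1.83 to 65.9 RPKM and changed places with TGFBR1 between libraries: it was above TGFBR1 in 9 libraries and below it in 3, which were ∆GAG-BG libraries 2 and 3 and control vector library 1. TGFBR3 stayed below TGFBR2 in 12 of 12 libraries, with TGFBR2 1.87 to 72.3 times higher in RPKM. The exon length of TGFBR3 is 8705 bases and its coding length 2553. The length of the betaglycan insert is not given, and RPKM would understate vector-derived transcripts shorter than the exon length. On coding length in place of exon length, chosen after seeing the data, the mean over the libraries of the ratio of TGFBR2 to ENG was 96.3% instead of 72.4%. The order of these 2 genes then turned in the 4 libraries numbered 1, where ENG was 0.774 to 0.966 times TGFBR2 per coding length, and held in the 8 others, at 1.09 to 1.24 times.

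**Figure D1:**
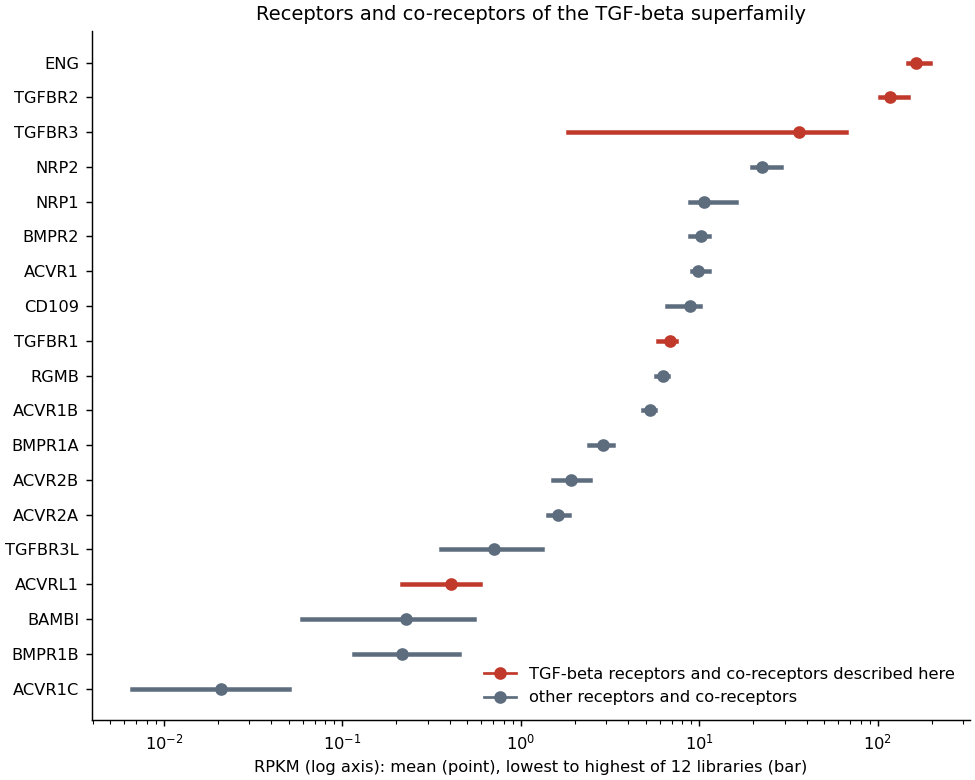
Level per length (RPKM, log axis) of 19 receptors and co-receptors of the TGF-β superfamily in HEYA8, with the mean as a point and the lowest to highest of 12 libraries as a bar. ENG and TGFBR2 are the highest, ACVRL1 is below 1 RPKM, and the bar of TGFBR3 runs from 1.83 to 65.9 RPKM, longer than any other.

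TGFBR2, the ligand-binding kinase, had similar means in the 4 groups. It stood at 560.0, 556 and 494 CPM in S534A. In S545A it stood at 606, 527 and 524 CPM. In ∆GAG-BG it stood at 691, 484 and 497 CPM, and in control vector at 621, 512 and 511 CPM. The groups overlapped in all 6 comparisons, and library 1 was the highest of each group. Group means ran from 537 ± 36.8 CPM in S534A to 557 ± 116 CPM in ∆GAG-BG (SD, n = 3), and the share of variance in log2 CPM lying between groups was 1.13%. The edgeR quasi-likelihood test over the 4 groups gave an adjusted p = 1.00 (Benjamini-Hochberg over 16069 genes), and the exact permutation test over 15400 partitions of the libraries gave p = 0.996. The widest 95% interval of a log2 difference between 2 groups was -0.36 to 0.25, for S534A against ∆GAG-BG.

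TGFBR1, the type I receptor that signals to SMAD2 and SMAD3, held 40.3 to 50.7 CPM. S534A libraries stood at 49.3, 50.7 and 49.8 CPM, above all 9 other libraries. S545A libraries stood at 47.6, 44.5 and 46.1 CPM, those of ∆GAG-BG at 40.3, 47.4 and 47.2 CPM, and those of control vector at 45.4, 46.7 and 45.3 CPM. S534A did not overlap any other group, and the lowest library was ∆GAG-BG library 1, which also had the highest TGFBR2. The log2 difference of S534A was 0.15 ± 0.08 (SE) against ∆GAG-BG and 0.12 ± 0.08 against control vector, and S545A was at -0.11 ± 0.08 against S534A. None passed the edgeR test (adjusted p = 0.890, 0.871 and 0.702). Over the 4 groups the edgeR adjusted p was 1.00 and the exact permutation test gave p = 0.103.

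ACVRL1, the type I receptor of the SMAD1 branch, was detected at 28 to 86 counts a library, the fewest of the 5. Its values were 1.21, 1.73 and 2.42 CPM in S534A, 1.084, 2.99 and 2.94 CPM in S545A, 1.36, 2.27 and 2.93 CPM in ∆GAG-BG and 1.62, 1.84 and 2.23 CPM in control vector. All 4 groups overlapped, and library 1 was the lowest of each. Counting error was large but did not cover the spread within S545A, where library 1 had an interval of 0.721 to 1.57 CPM and library 2 of 2.28 to 3.84 CPM. The largest log2 difference was 0.41 ± 0.39 (SE) for S545A against S534A and its 95% interval was -0.45 to 1.26. Over the 4 groups the edgeR adjusted p was 1.00 and the exact permutation test gave p = 0.882.

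TGFBR3, betaglycan itself, was highest in the S545A and S534A groups. No separate lines of a construct are named, so the mutation and the amount of vector in a line cannot be told apart. S545A libraries stood at 574, 521 and 519.9 CPM. S534A libraries stood at 476, 413 and 456 CPM. These 6 libraries lay above all 6 of ∆GAG-BG and control vector, and S545A lay above S534A without overlap. The paper's text also states more TGFBR3 RNA in the single mutants than in ∆GAG-BG. It did not see that increase in protein, measured by binding of labelled TGF-β1. The paper's supplement, however, lists TGFBR3 with a negative log2 fold change for each single mutant against ∆GAG-BG, a sign opposite to that found here. TIMP3, which the paper describes as most expressed in ∆GAG-BG, has the same negative sign there. Group means were 538 ± 30.8 CPM in S545A, 448 ± 32.4 CPM in S534A, 178 ± 140.2 CPM in control vector and 100.3 ± 138 CPM in ∆GAG-BG (SD, n = 3). The coefficient of variation was 5.73% and 7.23% in the single mutants against 78.9% in control vector and 137% in ∆GAG-BG. Control vector and ∆GAG-BG overlapped, and each had libraries at both levels.

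Over the 4 groups TGFBR3 gave p = 0.110 with edgeR (adjusted p = 1.00) and p = 0.0223 with the exact permutation test, unadjusted and 1 of 5 such tests. With the close pairs of libraries averaged within the 3 groups that hold them and counted once, an alternative chosen after seeing the data, the exact permutation test of the 9 remaining samples gave p = 0.121. Of all 16069 genes, 249 (1.55%) had an unadjusted p under 0.05 in the 4-group edgeR test, none of the 5 receptors among them. The adjusted test called 1 gene (0.00622%), CHI3L2, named here after its value was seen.

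ENG, the co-receptor endoglin, varied by 1.32 times between its lowest and its highest library. It stood at 601, 767 and 642 CPM in S534A and at 604, 672 and 673 CPM in S545A. In ∆GAG-BG it stood at 594, 607 and 603 CPM, and in control vector at 580.4, 661 and 662 CPM. The groups overlapped in all 6 comparisons, with S534A library 2 the highest and library 1 the lowest of each group. Group means ran from 602 ± 6.50 CPM in ∆GAG-BG to 669.9 ± 86.2 CPM in S534A (SD, n = 3), a log2 difference of 0.16 ± 0.10 (SE, edgeR adjusted p = 0.890). The exact permutation test over the 4 groups gave p = 0.485.

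**Figure D2:**
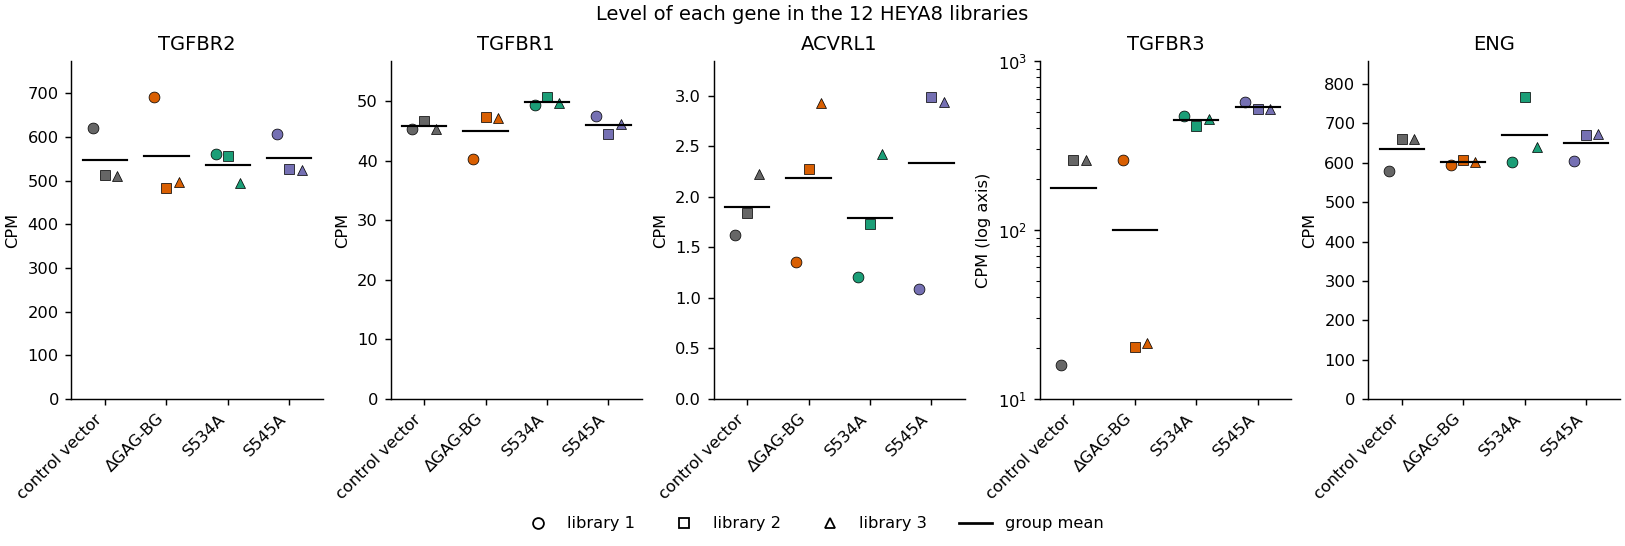
CPM of the 5 receptors in each library by group, with a symbol for each library number and a line at the group mean (TGFBR3 on a log axis). TGFBR3 is at 413 CPM or more in the S534A and S545A libraries and splits into 2 levels within control vector and within ∆GAG-BG, while the other 4 genes overlap between groups or lie within 40.3 to 50.7 CPM (TGFBR1).

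With all 12 libraries none of the 5 receptors was called in any of the 6 comparisons, where edgeR called 0 of 16069 genes (0%) each time. By DESeq2 there were 5 genes called for S534A vs. ∆GAG-BG, 2 for S534A vs. control vector and 1 for S545A vs. S534A, and limma (voom or quantile-normalized) called 1 gene in each of these 3, no receptor among them. DESeq2 gave TGFBR3 no p-value. Against ∆GAG-BG, TGFBR3 was 2.16 ± 1.01 (log2, SE) higher in S534A (adjusted p = 0.890 by edgeR) and 2.42 ± 1.02 higher in S545A (adjusted p = 1.00 by edgeR). Against control vector it was 1.33 ± 0.98 higher in S534A and 1.60 ± 0.99 higher in S545A, and in ∆GAG-BG it was at -0.82 ± 0.97. S545A and S534A differed by 0.26 ± 0.96, with a standard error set mainly by the spread within the other 2 groups, since 1 spread per gene was fitted. Fitted on these 2 groups alone, the difference was again 0.26 (edgeR adjusted p = 0.799).

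The result for S545A against ∆GAG-BG was the only receptor comparison with an unadjusted p under 0.05, among 177 of all genes (1.1%). In the other comparisons the share of all genes at that level was 0.871% for ∆GAG-BG and control vector, 2.99% for S534A and ∆GAG-BG, 3.45% for S534A and control vector, 1.05% for S545A and control vector and 4.78% for the single mutants, and none of the 5 receptors was among them. Groups that did not overlap were found for TGFBR1 and TGFBR3 when S534A was set against ∆GAG-BG (5.65% of all genes did not overlap there), control vector (7.65%) or S545A (10.1%). TGFBR3 alone of the 5 did not overlap in S545A against ∆GAG-BG (5.04%) or against control vector (8.82%), and no receptor did so in ∆GAG-BG against control vector (4.87%). With 3 libraries a group the two-sided exact permutation test cannot go below p = 0.1, which is the value of each of these.

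**Figure D3:**
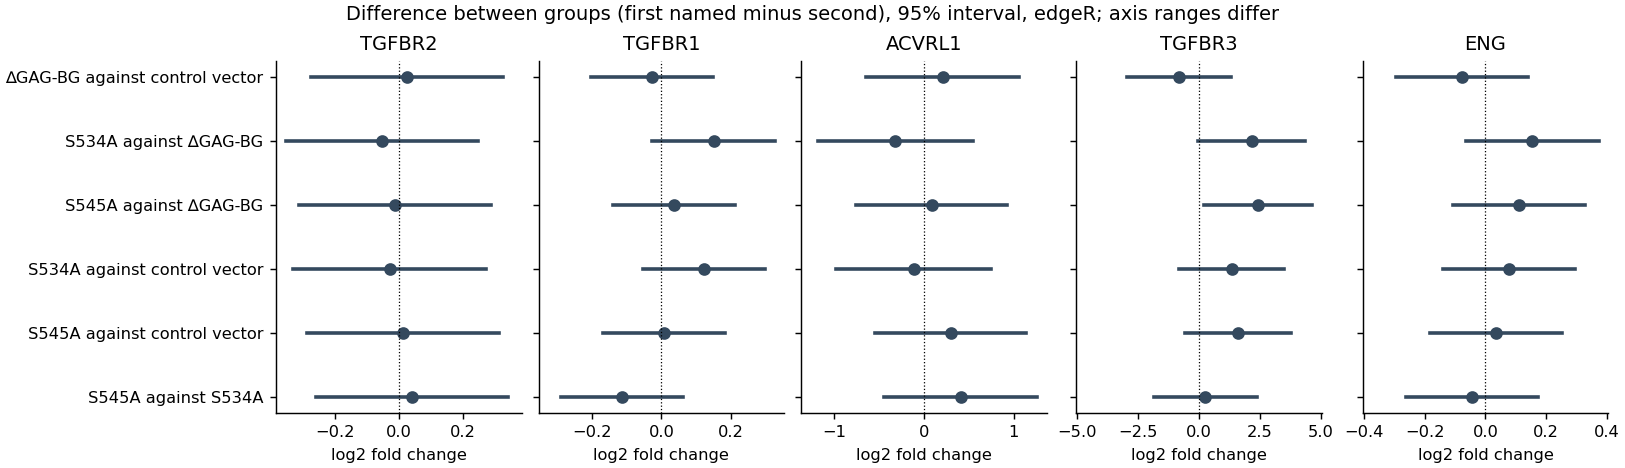
Log2 fold change of the 5 receptors in the 6 comparisons (first group minus second), with 95% intervals from edgeR and an axis of its own for each gene. The intervals of TGFBR2, TGFBR1 and ENG lie between -0.36 and 0.37, and for TGFBR3 only that of S545A against ∆GAG-BG (0.20 to 4.65) leaves out 0.

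The TGFBR3 differences turned on which libraries of ∆GAG-BG and control vector entered the fit. Without library 1 of both groups, a choice made after its TGFBR3 values were seen, ∆GAG-BG was at -3.64 ± 0.11 against control vector (log2, SE, edgeR adjusted p = 3.03e-07), where TGFBR3 was the only gene called of 16371 (0.00611%). In that fit TGFBR3 was again the only gene called (0.00611% each) when ∆GAG-BG was compared with S534A, at 4.43 ± 0.11, and with S545A, at 4.70 ± 0.11, and when S545A was compared with control vector, at 1.06 ± 0.09 (edgeR adjusted p = 4.76e-08, 3.08e-08 and 0.0074). S534A against control vector was 0.79 ± 0.09 (adjusted p = 0.0916 by edgeR, 0% called) and S545A against S534A was 0.27 ± 0.08 (adjusted p = 0.551, 0% called).

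Without libraries 2 and 3 of both groups the sign turned, and ∆GAG-BG was 4.01 ± 0.20 above control vector (edgeR adjusted p = 0.00105). In that fit the lone library of each group was assumed to vary like the others, and TGFBR3 was the only gene called of 17383 (0.00575%). It was also the only one relative to control vector in S534A, at 4.80 ± 0.20, and in S545A, at 5.06 ± 0.20 (0.00575% each, edgeR adjusted p = 0.000235 and 0.000175). Against ∆GAG-BG the differences in that fit were 0.79 ± 0.15 for S534A (adjusted p = 0.136, edgeR, where 0.0518% of genes were called) and 1.05 ± 0.15 for S545A (adjusted p = 0.224, edgeR, 0% called). S545A against S534A stayed at 0.26 ± 0.10 (0% called). The single mutants were above both other groups in all 3 fits, while the order of ∆GAG-BG and control vector was not fixed by these data. Because the libraries left out were those whose TGFBR3 stood apart, these p-values describe the remaining libraries and are no independent test. In the fit without library 1, ∆GAG-BG and control vector are each held by libraries 2 and 3 alone, which differed by 1.89 and 1.41 in chi-square per degree of freedom, so the SEs and p-values there set the differences against a spread that in these groups was near sampling noise.

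**Figure D4:**
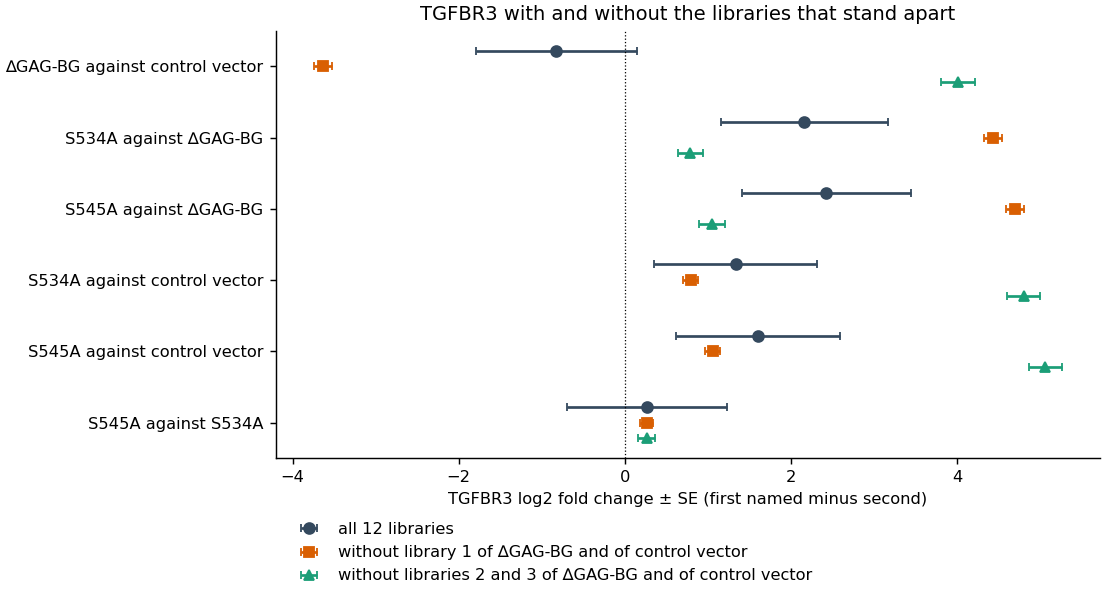
TGFBR3 log2 fold change ± SE (edgeR) in the 6 comparisons with all 12 libraries, without library 1 of ∆GAG-BG and of control vector, and without libraries 2 and 3 of these groups. ∆GAG-BG against control vector runs from -3.64 to 4.01, and S545A against S534A stays at 0.26 to 0.27.

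For 3 of the receptors, library 1 was at the same extreme in 4 of 4 groups. Libraries 2 and 3 were close in 3 of the groups, so library 1 would often be an extreme for any gene. The share of all genes with such a pattern was not computed, so it is not shown to be particular to these receptors. TGFBR2 was highest in library 1 of 4 of 4 groups, at 1.07 times the mean CPM of libraries 2 and 3 in S534A, 1.15 in S545A, 1.21 in control vector and 1.41 in ∆GAG-BG. ENG was lowest in library 1 of 4 of 4 groups, at 0.854 to 0.982 times that mean, and ACVRL1 was lowest in 4 of 4, at 0.366 to 0.799 times. The level ratio of ENG to TGFBR2 in RPKM was therefore 1.03 to 1.28 in the 4 libraries numbered 1 and 1.45 to 1.65 in the 8 others. TGFBR1 had no common direction, at 0.851 to 1.05 times. TGFBR3 in library 1 was 1.10 times libraries 2 and 3 in both single mutants, 12.4 times in ∆GAG-BG and 0.0614 times in control vector. The labels give no batch for the numbers, and their part in the levels was not tested.

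**Figure D5:**
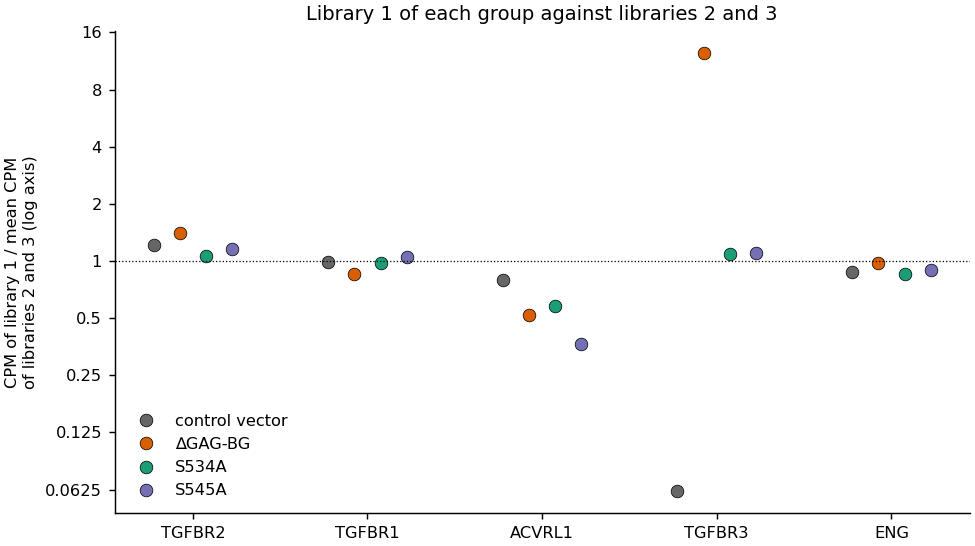
CPM of library 1 divided by the mean of libraries 2 and 3 for each receptor and group (log axis, dotted line at equal level). All 4 points of TGFBR2 lie above the line and all 4 of ENG and of ACVRL1 below it, while TGFBR3 is at 12.4 in ∆GAG-BG and 0.0614 in control vector.

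Other receptor-level genes of the pathway were read from 5 lists of 50 genes in all, and 43 of them had enough counts to be tested. None had an adjusted p under 0.05 in any of the 6 comparisons by edgeR. At an unadjusted p under 0.05, 1 passed for S534A relative to control vector, SMAD7, an inhibitor that targets TGFBR1 for degradation, and 1 in S545A against S534A, BMPR1B, a BMP type I receptor. SMAD7 stood at 21.0 CPM in S534A library 2 and at 5.21 to 7.93 CPM in the other 11 libraries. BMPR1B was at 0.734 to 0.929 CPM in S545A and 1.27 to 2.83 CPM in S534A. Both were named after their values were seen, and 3.45% and 4.78% of all genes passed at that level in these comparisons. Groups did not overlap for 5 of the 43 genes (11.6%, beside 4.87% of all genes) between ∆GAG-BG and control vector. The count was 0 (0%, beside 5.65%) between ∆GAG-BG and S534A, and 3 (6.98%, beside 5.04%) between ∆GAG-BG and S545A. It was 1 (2.33%, beside 7.65%) between control vector and S534A, 2 (4.65%, beside 8.82%) between control vector and S545A, and 3 (6.98%, beside 10.1%) between the single mutants. The median log2 difference of the 43 genes lay between -0.05 and 0.01, beside -0.01 to 0.01 for all genes.

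ACVR1 was the most abundant of the other type I receptors, at a mean of 9.83 RPKM, and BMPR2, the BMP type II receptor, of the other type II receptors, at 10.2 RPKM. NRP2 led the other co-receptors at 22.4 RPKM. FKBP1A, which binds the type I receptors and holds them inactive, led the receptor partners at 163 RPKM, a level like that of ENG. MMP14, a membrane metalloproteinase, led the enzymes that cleave receptors at 100.4 RPKM. AMHR2 and CFC1 held 0 counts in all 12 libraries, and TDGF1, RGMA, HFE2 and LRRC32 held at most 3, which is within the limit taken for a count of 0. TGFBR3L, the betaglycan-like gene, stood at 0.359 to 1.32 RPKM, and its longest run in common with TGFBR3 was 14 bases.

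The genes with the most similar profile over the 12 libraries were found by a distance, the root mean square difference of mean-centred log2 CPM over that of the receptor itself, which is 0 for the same profile and about 1 for a flat one. This is a description over libraries that share groups and library numbers. TMEM248 was nearest to TGFBR1 (distance 0.355), with H3F3B and BRD7 next, and like it TMEM248 was lowest in ∆GAG-BG library 1 (126 CPM). PARD3B, a polarity gene, was nearest to ACVRL1 (0.363), with PKD1L1 and BST1 next, and was lowest in S545A library 1, as ACVRL1 was. C20orf197, WDR3 and HTRA2 were nearest to TGFBR2 (0.289 to 0.304), and DAPK3, RBM5 and ZBTB17 to ENG (0.346 to 0.368). No gene came near TGFBR3: PAPPA2 was the closest of 13396 at 0.759, ahead of INHBE at 0.804 and DDIT4 at 0.835. PAPPA2 stood at 8.56, 1.49 and 1.49 CPM in ∆GAG-BG and at 1.80, 3.53 and 3.29 CPM in control vector, and at 2.61 to 5.92 CPM in the single mutants. It shared the split of TGFBR3 within those 2 groups, but its highest library was ∆GAG-BG library 1.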

How the data were processed

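Total RNA of 12 HEYA8 libraries was sequenced (paired reads). The authors deposited 1 table of raw counts per gene, without normalization. The submitters' processing notes name FastQC, Trim Galore 0.4.5, STAR 2.4, SAMtools 1.2 and featureCounts, and the mouse builds mm10 and GRCm38. The table holds human genes, of which 36113 symbols are in GENCODE 29 (GRCh38) and 33622 have the same start and end there. Its strand setting and annotation release are not given in the sources used here. Differential expression by the authors was run in bioJupies.

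A single edgeR model (4.0.16, R 4.3.3) of the 4 groups gave the robust quasi-likelihood tests. It used TMM scaling and the 16069 genes that filterByExpr kept at a minimum count of 10, over which p-values were adjusted by Benjamini-Hochberg. The model was run on simulated counts of independent libraries with the same spread for all genes. That setting lacks the close pairs of libraries found here, so it does not check the p-values for such data. CPM uses TMM library sizes, and RPKM the table's exon length. SDs are of CPM, and permutation tests used log2(CPM + 0.5) and were two-sided. p-values measure the spread between libraries, which the labels call biological replicates.

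Alternatives were DESeq2 1.42.0, limma 3.58.1 (voom, and quantile-normalized log2(CPM + 1)), other scalings and filters, the 2 groups alone, libraries left out or summed, and the replicate number as a block. Same-numbered libraries deviated together at all 3 numbers only in S545A against control vector (correlations of 0.688, 0.411 and 0.408). The main model took no pairs. The block was fitted to all 12 libraries as an alternative, and its value is given for S545A against control vector. Libraries 2 and 3 of both groups were close. The correlations thus cannot show whether libraries 2 pair with each other or with libraries 3. Elsewhere at least 1 correlation was under 0.1. The receptors, lists and alternatives were chosen with earlier results of these data known. Genes named beyond the receptors are the 3 nearest profiles for each receptor and, per list, genes called, the highest by RPKM and those within 3 counts in every library.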

Additional observations from a re-analysis of the deposited data

How the results depend on the processing

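No receptor other than TGFBR3 was called under any alternative, and TGFBR3 was called only with libraries left out. The number of receptors called rose from 0 to 1 without libraries 2 and 3 of ∆GAG-BG and control vector in each comparison with control vector. It rose from 0 to 1 without library 1 of both, added after seeing the data, in all but S534A against control vector and S545A against S534A. In the first fit TGFBR3 was at 4.01 for ∆GAG-BG, 4.80 for S534A and 5.06 for S545A, each against control vector. In the second it was at -3.64 for ∆GAG-BG and 1.06 for S545A against control vector, and at 4.43 for S534A and 4.70 for S545A against ∆GAG-BG (log2). Summing libraries 2 and 3 put ∆GAG-BG against control vector at 0.024 for TGFBR3. The 4-group test of TGFBR3 went from p = 0.110 with edgeR to 0.0223 by exact permutation, and to 0.121 by exact permutation with each close pair of libraries averaged, added after seeing the data. The replicate block changed no call, with 0 receptors called and TGFBR3 at 1.42 for S545A against control vector (paired by number, edgeR adjusted p = 1.00). Of 534 values of single receptors under an alternative, 52 changed sign and 6 others newly passed the threshold, all 6 of them of TGFBR3. DESeq2 gave no p-value for TGFBR3, so no value is given for it.

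Leaving out 1 library changed no call, but moved TGFBR3 by over 1.5 times: without ∆GAG-BG library 1, ∆GAG-BG against control vector went to -3.10, S534A against ∆GAG-BG to 4.43 and S545A against ∆GAG-BG to 4.70, and without control vector library 1 the values against it went to -1.37 for ∆GAG-BG, 0.79 for S534A and 1.06 for S545A. Without library 2 or 3, ∆GAG-BG against control vector went to -0.34 (∆GAG-BG libraries) or -0.45 (control vector libraries). The other sign changes were of log2 differences near 0, and their cause was not tested. For TGFBR2, leaving out 1 library gave -0.17 to 0.12 for ∆GAG-BG against control vector, -0.15 to 0.13 for S534A and -0.10 to 0.18 for S545A against ∆GAG-BG, -0.078 to 0.070 for S534A and -0.059 to 0.11 for S545A against control vector, and -0.027 to 0.079 for S545A against S534A. For TGFBR1 it gave -0.071 to 0.038 for ∆GAG-BG against control vector, -0.032 to 0.080 for S545A against ∆GAG-BG and -0.013 to 0.031 for S545A against control vector. For ACVRL1 it gave -0.065 to 0.45 for ∆GAG-BG against control vector, -0.16 to 0.44 for S545A against ∆GAG-BG and -0.36 to 0.11 for S534A against control vector. For ENG it gave -0.031 to 0.14 for S534A and -0.026 to 0.086 for S545A against control vector, and -0.11 to 0.067 for S545A against S534A.

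Without libraries 2 and 3 of ∆GAG-BG and control vector, ∆GAG-BG against control vector was -0.27 for ACVRL1 and 0.018 for ENG, S534A against ∆GAG-BG 0.37 and S534A against control vector 0.093 for ACVRL1, and S545A against control vector -0.19 for TGFBR2. Without library 1 of both, ∆GAG-BG against control vector was -0.065 for TGFBR2 and 0.035 for TGFBR1, S534A against ∆GAG-BG 0.13 for TGFBR2, S545A against ∆GAG-BG 0.18 for TGFBR2, -0.032 for TGFBR1 and -0.16 for ACVRL1, S534A against control vector 0.070 for TGFBR2, and S545A against control vector -0.025 for ENG. For TGFBR2, limma on quantile-normalized values gave 0.0062 for S534A and 0.0014 for S545A against ∆GAG-BG, 0.015 for S534A against control vector and -0.0048 for S545A against S534A, while library size only gave 0.0033 and limma-voom 0.0038 for S545A against ∆GAG-BG. For S545A against control vector, no filter on low counts gave -0.00084 for TGFBR2 and -0.0043 for TGFBR1, and summing libraries 2 and 3 gave -0.0058 for TGFBR2. The depth limits ACVRL1 most, and the nearest profiles were the same 3 genes per receptor on library size only.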
